A study of Drosophila melanogaster with 24 samples.

Results

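The cup and comet genes are a small group of *Drosophila* testis genes whose transcripts are made after meiosis, in elongating spermatids. The 10 genes *schuy*, *hale*, *soti*, *scpr-B*, *p-cup*, *r-cup*, *t-cup*, *d-cup*, *c-cup* and *wa-cup* were taken by their symbols. The list was chosen with earlier results of these data known. All 10 were listed on all 4 days, among 13395 genes listed on at least 1 day and 12254 listed on all 4. RNA sequencing compared testes in which the early germline driver *nos-Gal4* expressed an RNAi transgene against *Set1* (*Set1* KD) with testes in which it expressed RNAi against mCherry, a protein that flies lack (Ctrl KD, called WT in the genotype label). Males of both genotypes came from crosses kept at 18°C and were then aged at 25°C for 0, 1, 3 or 5 days post-eclosion. Each of the 8 groups held 3 libraries, 24 in all, and each library pooled about 15 pairs of testes. That the genes are transcribed after meiosis is background knowledge, which bulk tables cannot check. The testes were digested, filtered and pelleted before polyadenylated RNA was taken. The labels call the cells germ cells, although the RNA came from the cells of the entire testis and the driver acts only in early germ cells.

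*Set1* encodes an enzyme that methylates histone H3 on lysine 4, a mark of active promoters. In the fly testis, stem cells at the tip give rise to spermatogonia, which divide and become spermatocytes. Spermatocytes make most of the mRNAs that the sperm will need and store many of them until after the meiotic divisions, when transcription largely stops. The cup and comet genes are the exception, since they are transcribed late in spermatid elongation, and they are named for where their mRNAs lie at the ends of the spermatid tails, as a comet-like streak or an acorn-like cup. Of the 10 proteins, Soti has the best known role. It inhibits a Cullin-3 ubiquitin ligase of spermatids in a gradient along the tail, and so helps to order caspase activity while spermatids are separated from each other. Scpr-B belongs to a family of proteins with an SCP domain. Roles of the other proteins are left out here.

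The data of a day are a table that gives, for each gene, the mean normalized read count over the 6 libraries of both genotypes and the log2 ratio of *Set1* KD to Ctrl KD testes (log2 fold change) together with its standard error (SE). Approximate means for each genotype were derived from these values and carry no error of their own, and values of single libraries were not used here. Between 12599 and 12995 genes were tested per day, with a median SE of 0.22 to 0.26. The transcript of *Set1* itself, on chromosome 3L, 25107594 to 25115180, plus strand, had a log2 fold change of -0.42, -0.50, -0.31 and -0.26 on days 0, 1, 3 and 5. Its adjusted p was 0.214, 0.0473, 0.162 and 0.424, so that the targeted transcript passed the threshold of 0.05 on day 1 alone. These values are of the entire testis, whereas the driver acts only in early germ cells. In those cells, the paper reported by staining that the histone mark made by Set1 was strongly reduced. Here and elsewhere, 4 values in a row are those of days 0, 1, 3 and 5 in this order. Germ cell genes such as *vas* and *nos* were listed on every day, as were genes of cyst, hub and muscle cells. In such bulk samples, fewer spermatids and less RNA per spermatid cannot be told apart.

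Most cup and comet transcripts were lower in *Set1* KD testes than in Ctrl KD testes on the later days, whereas *p-cup* was higher on the earlier days. At day 3, 7 of the 10 genes were lower at an adjusted p under 0.05 (Wald test, Benjamini-Hochberg over all genes) and 0 were higher, beside 28.0% of all genes lower and 28.9% higher. At day 5, 6 were lower and 0 higher, beside 25.6% and 24.4% of all genes. At day 0, 2 were lower and 1 was higher, beside 15.7% and 14.7%. At day 1, 4 were lower and 1 was higher, beside 17.6% and 15.2%. The share of members lower was thus near that of all genes on day 0 and above it on days 1, 3 and 5. At an unadjusted p under 0.05, 0 members were higher on days 3 and 5 as well. With Benjamini-Yekutieli adjustment the numbers lower were 1, 2, 5 and 5, beside 8.87%, 10.7%, 20.6% and 17.4% of all genes on days 0, 1, 3 and 5. The calls lost under it were those of *scpr-B* at day 0 (adjusted p = 0.119), *t-cup* and *d-cup* at day 1 (0.497 and 0.456), *schuy* at day 3 (0.215), and *c-cup* at days 3 and 5 (0.0949 and 0.104). The changes were modest in size. By the study's criteria, which also ask for a change of 1.3 or more in size on the log2 scale, *soti* at day 5 was the one call among the 10 genes, and 0 were called on the other days. The same criteria called 2.98%, 3.27%, 5.90% and 6.79% of all genes lower.

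The median log2 fold change of the 10 genes was -0.38, -0.43, -0.62 and -0.67 on days 0, 1, 3 and 5. Their mean weighted by 1 over the squared SE was -0.13, -0.25, -0.66 and -0.64, which differed from the median mainly on days 0 and 1. Over all genes tested, the median was 0.016, -0.0044, 0.027 and 0.00076. The members spread widely around their median, from -1.04 to 0.64 at day 0 and from -1.35 to 0.072 at day 5. Summed over the 10 genes, the derived mean normalized count was 44353, 58767, 62488 and 52138 in Ctrl KD testes. In *Set1* KD testes, the sum was 35344, 46481, 36032 and 27895. The sum was therefore lower in *Set1* KD testes on each day, most so at day 5, and *soti* alone made up 38.8% to 44.0% of it in Ctrl KD testes. When log2 fold changes were instead taken relative to the median of 20 sperm genes that spermatocytes transcribe, the counts were 0 lower and 2 higher at day 0, 1 and 2 at day 1, 2 and 2 at day 3, and 2 and 2 at day 5. With that baseline 6.25%, 8.14%, 7.85% and 7.17% of all genes were lower, and 33.4%, 33.4%, 59.9% and 53.7% were higher. Relative to those sperm genes, the cup and comet genes had a median of -0.0034, -0.11, 0.054 and 0.0028. Relative to that baseline the group as a whole was thus close to 0.

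**Figure D1:**
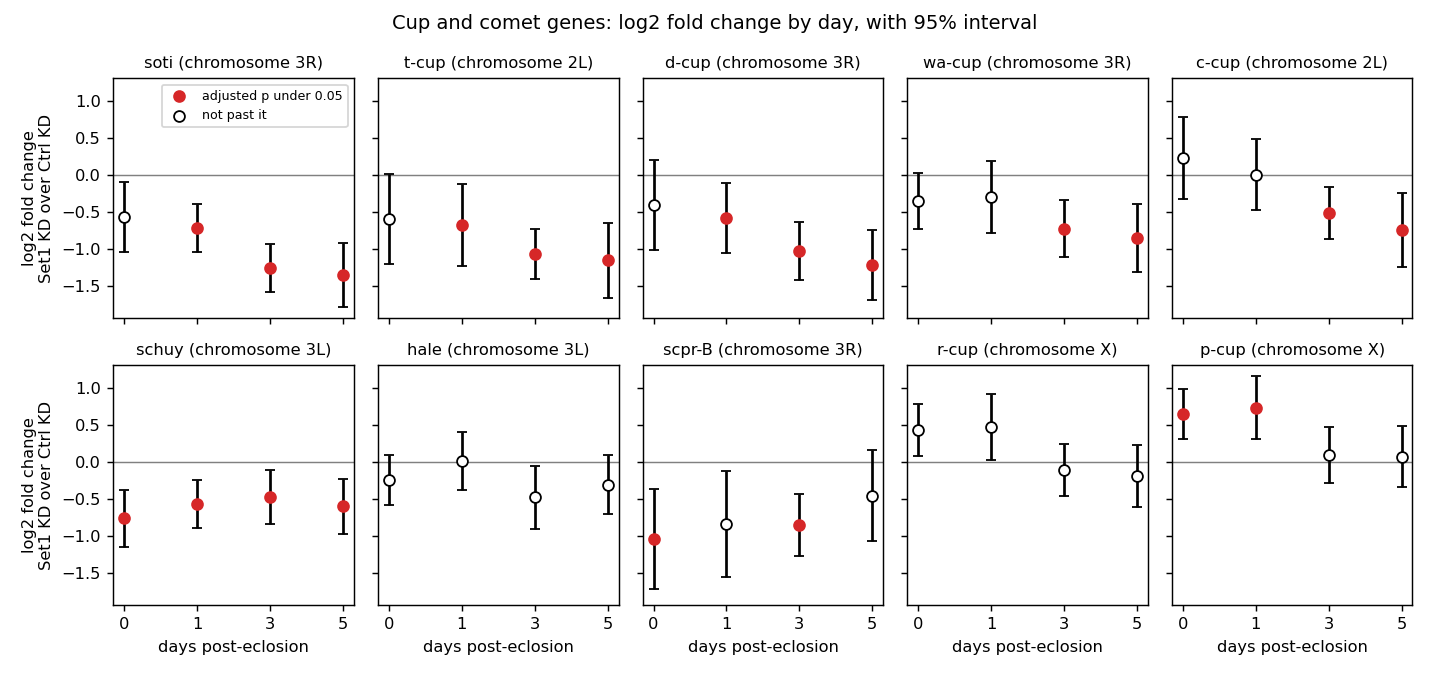
Log2 fold change between *Set1* KD and Ctrl KD testes (vertical axis, negative where *Set1* KD is lower) by days post-eclosion (horizontal axis) for each of the 10 genes, with bars for the 95% interval from the SE and filled points for an adjusted p under 0.05. The upper row, from *soti* to *c-cup*, lies lowest at day 5, *schuy* is filled on all 4 days, and *p-cup* is filled above 0 on days 0 and 1.

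To see how abundant these transcripts were, levels were compared between genes per kilobase of exon. In Ctrl KD testes at day 3, *soti* had the highest level, 25432 normalized counts per kb, followed by *c-cup* with 7405 and *t-cup* with 5855. The lowest level was that of *d-cup*, 869 per kb. These first 3 ranks and the last were held on each day. Reads were mapped without alignment across introns, which can lower the counts of genes with several exons. *soti* and *t-cup* have 1 exon, and the others have from 2, such as *c-cup*, to 8 in *wa-cup*. The part of this in the order was not tested. All 10 transcripts were abundant, since the Ctrl KD level of each lay above that of at least 77.0% of the genes of the day, and that of *soti* above 99.3% or more. No error can be given for a level within 1 genotype, so neighbours in this order, such as *schuy* and *wa-cup* at 2306 and 2330.3 per kb at day 0, were not told apart. The plot of levels by day shows the distance between the genotypes for each gene.

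**Figure D2:**
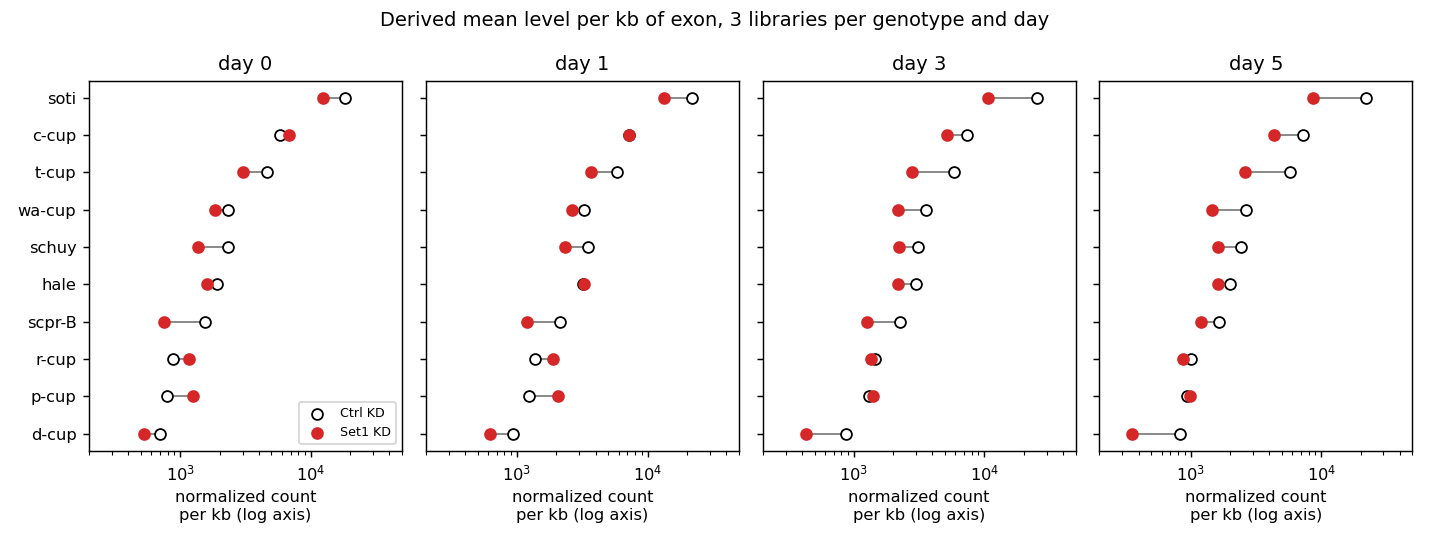
Derived mean normalized count per kb of exon (horizontal log axis) in Ctrl KD (open points) and *Set1* KD testes (filled points) for the 10 genes on each day, 3 libraries per genotype and day. For *soti*, the points lie at 22128 and 8661 at day 5, and for *p-cup* they nearly coincide at 933 and 980.3.

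The gene with the lowest log2 fold change on the later days was *soti*, the inhibitor of the Cullin-3 ligase, a single-exon gene on chromosome 3R, 14380663 to 14381699, minus strand (build dm6, Release 6). Its derived mean normalized count was 18981, 22795, 26373 and 22946 on days 0, 1, 3 and 5 in Ctrl KD testes. The corresponding *Set1* KD values were 12795, 13864, 11019 and 8982. The level in *Set1* KD testes was thus 32.6% lower at day 0 and 60.9% lower at day 5. The log2 fold change was -0.57 ± 0.24, -0.72 ± 0.16, -1.26 ± 0.17 and -1.35 ± 0.22 (± SE, 3 libraries per genotype). With adjusted p-values of 0.0608, 1.17e-04, 1.32e-12 and 1.36e-08, *soti* passed the test on days 1, 3 and 5.

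Of the cups, *t-cup* and *d-cup* followed *soti* most closely in size. *t-cup*, on chromosome 2L, 12496616 to 12497333, minus strand, lies within an intron of *bun* on the same strand, with which it shares no exonic base. Its derived mean normalized count was 3318, 4217, 4204 and 4129 on days 0, 1, 3 and 5 in Ctrl KD testes. After knockdown of *Set1* the means were 2188, 2631, 2005 and 1857, which is 52.3% lower at day 3 and 55.0% lower at day 5. The log2 fold change was -0.60 ± 0.31, -0.68 ± 0.28, -1.07 ± 0.17 and -1.15 ± 0.26, and it passed the test on days 1, 3 and 5 with adjusted p-values of 0.0495, 4.56e-09 and 6.12e-05. The call of day 1 was narrow, with an adjusted p of 0.0536 once log2 fold changes were centred on the median of all genes with a mean of at least 10. The host gene *bun* had log2 fold changes of 0.11, 0.078, 0.40 and 0.41, with adjusted p-values of 0.695, 0.788, 0.0454 and 0.0762. The 2 genes thus had values of opposite sign, but *bun* passed the threshold narrowly and at day 3 alone.

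*d-cup*, on chromosome 3R, 12891956 to 12893158, plus strand, had the lowest level of the group and a similar pattern. Its derived mean normalized count was 772, 1018, 952 and 902 on days 0, 1, 3 and 5 in Ctrl KD testes. For *Set1* KD testes the values were 582, 679, 468 and 388. The log2 fold change of *d-cup* was -0.41 ± 0.31, -0.58 ± 0.24, -1.02 ± 0.20 and -1.22 ± 0.24, with adjusted p-values of 0.333, 0.0454, 1.75e-06 and 4.05e-06. It was lower at the threshold on days 1, 3 and 5 and did not pass at day 0. Over 457 exonic bases it overlaps an antisense RNA gene, *asRNA:CR44235*, that was not listed. The library kit marks strand, but whether the counting used it was not given in the sources used here, so reads of the 2 genes may not be separated.

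Both *wa-cup* and *c-cup* were lower on days 3 and 5 and did not pass the test on days 0 and 1. *wa-cup*, on chromosome 3R, 7420765 to 7423057, plus strand, had a derived mean of 4376, 6112, 6715 and 4939 on days 0, 1, 3 and 5 in Ctrl KD testes. With *Set1* knocked down it was 3440.0, 4982, 4057 and 2731. Its log2 fold change was -0.35 ± 0.19, -0.30 ± 0.25, -0.73 ± 0.20 and -0.85 ± 0.23, and the adjusted p was 7.15e-04 at day 3 and 0.00108 at day 5. The sign was negative on all 4 days. *c-cup*, on chromosome 2L, 1831627 to 1832565, minus strand, is the second most abundant of the 10 transcripts and had a derived mean of 5091, 6383, 6531 and 6428 in Ctrl KD testes. The corresponding *Set1* KD values were 5967, 6397, 4580.3 and 3842. Its log2 fold change moved from 0.23 ± 0.28 at day 0 and 0.0030 ± 0.24 at day 1 to -0.51 ± 0.18 at day 3 and -0.74 ± 0.26 at day 5. At day 0 its derived mean was higher in *Set1* KD testes without passing the test (adjusted p = 0.582). The genotypes had nearly the same level at day 1, and on days 3 and 5 the transcript was 29.9% and 40.2% lower, with adjusted p-values of 0.00944 and 0.0104.

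The comet genes *schuy* and *hale* are neighbours on chromosome 3L that are transcribed away from each other, with 224 bases between them. *schuy*, on chromosome 3L, 19986093 to 19988072, plus strand, was the one member lower on all 4 days. Its derived mean normalized count was 4421, 6667, 5936 and 4678 on days 0, 1, 3 and 5 in Ctrl KD testes. After knockdown of *Set1* the means were 2612, 4498, 4270.2 and 3084. The log2 fold change was -0.76 ± 0.20, -0.57 ± 0.17, -0.48 ± 0.19 and -0.60 ± 0.19, with adjusted p-values of 0.00100, 0.00345, 0.0214 and 0.00464. The value of day 0 was the lowest of the 4. Relative to the sperm genes of spermatocytes, *schuy* passed on none of the days, with log2 fold changes of -0.39, -0.24, 0.20 and 0.073 and adjusted p-values of 0.104, 0.234, 0.343 and 0.751. *hale*, on chromosome 3L, 19984426 to 19985868, minus strand, passed the test on none of the days. Its derived mean was 2643, 4420.2, 4171 and 2745 in Ctrl KD testes. For *Set1* KD testes the values were 2230.1, 4472, 2993 and 2220.3. The log2 fold change of *hale* was -0.25 ± 0.17, 0.017 ± 0.20, -0.48 ± 0.22 and -0.31 ± 0.20, and its adjusted p of 0.0501 at day 3 lay at the threshold, passing it at 0.04998 when only genes with a mean of at least 10 were adjusted for. Despite their common intergenic stretch, the 2 genes thus received different calls, although the difference between them was not tested.

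*scpr-B*, on chromosome 3R, 11240041 to 11240991, minus strand, had the lowest log2 fold change of the group on days 0 and 1. Its derived mean normalized count was 1384, 1926, 2039 and 1478 on days 0, 1, 3 and 5 in Ctrl KD testes. With *Set1* knocked down it was 673, 1075, 1134 and 1075. The log2 fold change was -1.04 ± 0.34, -0.84 ± 0.37, -0.85 ± 0.21 and -0.46 ± 0.31, with adjusted p-values of 0.0119, 0.0613, 2.71e-04 and 0.214. It was lower on days 0 and 3, while its SE on days 0, 1 and 5 was the largest of the 10 genes. The related genes *scpr-A*, 191 bases away, and *scpr-C* gave nearly the same series. For *scpr-A* the log2 fold change was -1.02, -0.76, -0.80 and -0.61. For *scpr-C* it was -1.04, -0.81, -0.81 and -0.44. At day 3, these paralogs had 10736 and 17162 mean normalized counts against 1587 for *scpr-B*. Whether reads were assigned to the wrong copy was not tested, and the value of *scpr-B* is uncertain to that extent.

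*p-cup* and *r-cup* had the highest log2 fold changes of the group on every day. *p-cup*, on chromosome X, 17446350 to 17448774, minus strand, had a derived mean of 1495, 2317, 2458 and 1749 on days 0, 1, 3 and 5 in Ctrl KD testes. The corresponding *Set1* KD values were 2337, 3839, 2616 and 1838. The transcript was thus 56.3% higher at day 0 and 65.7% higher at day 1, and the genotypes lay close together afterwards. Its log2 fold change was 0.64 ± 0.17, 0.73 ± 0.22, 0.090 ± 0.19 and 0.072 ± 0.21, with adjusted p-values of 0.00164 and 0.00430 on the 2 early days and 0.704 and 0.793 on the later days. *r-cup*, on chromosome X, 21023390 to 21025888, minus strand, had a derived mean of 1871, 2912, 3109.7 and 2143 in Ctrl KD testes. After knockdown of *Set1* the means were 2519, 4045, 2889.6 and 1879. Its log2 fold change was 0.43 ± 0.18, 0.47 ± 0.23, -0.11 ± 0.18 and -0.19 ± 0.21, and it passed the test on none of the days, with an adjusted p of 0.0507 at day 0.

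Both of these genes lie on the X chromosome, whereas the other 8 lie on 2L, 3L and 3R. This split was noticed after the values were seen and is given as a description. The median log2 fold change of the 2 X-linked members was 0.54, 0.60, -0.0079 and -0.059 on days 0, 1, 3 and 5. That of the 8 autosomal members was -0.49, -0.58, -0.79 and -0.80. The 2 ranges did not overlap on any day, which only restates that these 2 genes had the highest values of the group. Over all X-linked genes tested, the median was 0.18, 0.14, 0.19 and 0.23. Over all genes on chromosomes 2 and 3, it was -0.026, -0.042, -0.0097 and -0.043. The X-linked genes as a whole were thus slightly higher too, by less than the 2 members on days 0 and 1. None of the other sperm and post-meiotic genes listed for this comparison is X-linked.

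Whether the effect of the knockdown on a member differed with age was asked for each pair of days by a z test of the difference between its log2 fold changes, with the SEs combined and p-values adjusted over all genes. In each of the 6 pairs of days, 0 of the 10 members passed. Against day 0, 0% of all genes differed at day 1, 1.90% at day 3 and 4.24% at day 5. Against day 1 the shares were 0.363% at day 3 and 2.04% at day 5, and day 5 against day 3 gave 0%. At an unadjusted p under 0.05, the members that differed numbered 0, 4, 5, 3, 4 and 0 for these pairs in the same order, each of them lower on the later day, beside 0.771%, 9.09%, 12.2%, 5.92%, 9.17% and 1.43% of all genes that differed at this threshold and were lower. The lowest adjusted p was 0.114, for days 0 and 5. The largest difference of that pair was that of *c-cup*, -0.97 ± 0.38, followed by *d-cup* with -0.81 ± 0.39 and *soti* with -0.78 ± 0.33. For single genes and single days, no difference with age was thus detectable at the adjusted threshold.

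A comparison of the mean of days 3 and 5 with that of days 0 and 1, chosen after the single days had been seen, called 4 members lower on the later days and 0 higher, beside 9.46% of all genes lower and 9.27% higher. The difference was -0.66 ± 0.20 for *soti* (adjusted p = 0.0122) and -0.74 ± 0.24 for *c-cup* (adjusted p = 0.0203). It was -0.61 ± 0.20 for *p-cup* (adjusted p = 0.0208) and -0.60 ± 0.20 for *r-cup* (adjusted p = 0.0231). The 4 genes moved in the same direction from different starting points, since the early mean was -0.64 for *soti*, 0.12 for *c-cup*, 0.69 for *p-cup* and 0.45 for *r-cup*. *d-cup* differed by -0.62 ± 0.25 and did not pass (adjusted p = 0.0589), nor did *t-cup*, *wa-cup* and *hale*, whose differences lay between -0.47 and -0.28. Only *schuy* and *scpr-B* had positive differences, 0.13 ± 0.18 and 0.29 ± 0.31. These 4 calls became 0 when day 5 was set against day 0 alone, where the differences were -0.78 for *soti*, -0.97 for *c-cup*, -0.57 for *p-cup* and -0.62 for *r-cup*, with SEs of 0.27 to 0.38. They also became 0 when each day was taken relative to the sperm genes of spermatocytes, and *schuy* was then called higher at 0.45, beside 3.02% of all genes lower and 32.5% higher.

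**Figure D3:**
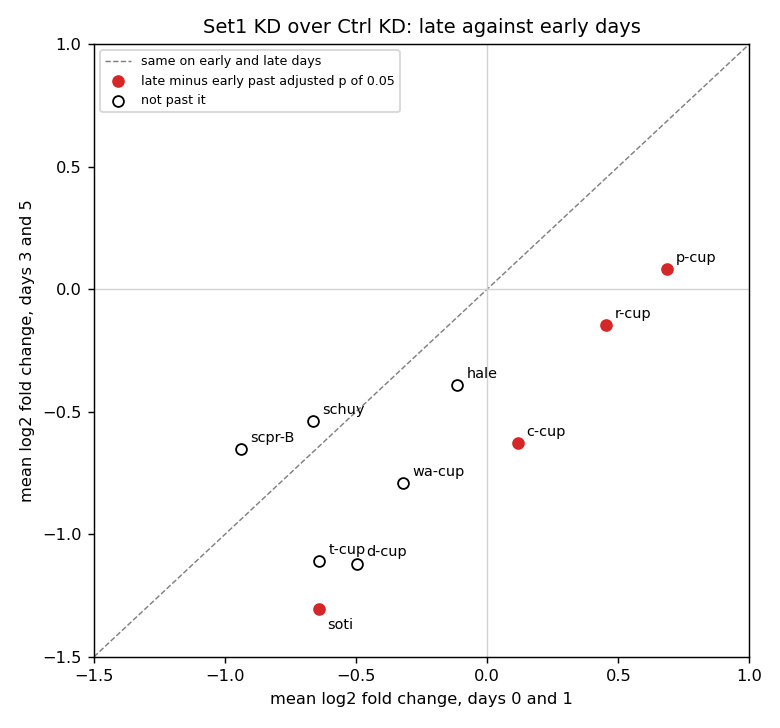
Mean log2 fold change between *Set1* KD and Ctrl KD testes on days 3 and 5 (vertical axis) against that on days 0 and 1 (horizontal axis) for the 10 genes, where the dashed line marks equal values and filled points an adjusted p under 0.05 for the difference. 8 genes lie below the line and 2, *schuy* and *scpr-B*, above it.

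Averaged over the 4 days, a summary also chosen after the single days had been seen, 7 members were lower and 1 was higher, beside 35.9% of all genes lower and 34.8% higher. The mean log2 fold change ranged from -0.97 ± 0.10 for *soti* to 0.38 ± 0.099 for *p-cup*, the member that was higher. It was -0.88 ± 0.13 for *t-cup*, -0.81 ± 0.12 for *d-cup* and -0.80 ± 0.16 for *scpr-B*. *hale*, which no single day called, was lower at -0.25 ± 0.10 (adjusted p = 0.0168). The members that did not pass were *r-cup*, 0.15 ± 0.10, and *c-cup*, -0.26 ± 0.12 (adjusted p = 0.0503).

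Other genes known for transcription after meiosis were then set beside the members. For this list and those that follow, the share of all genes lower was 15.7%, 17.6%, 28.0% and 25.6% on days 0, 1, 3 and 5. The share of all genes higher was 14.7%, 15.2%, 28.9% and 24.4%. Of 8 further comet, cup and post-meiotic genes tested, the number lower was 4, 3, 4 and 4 on days 0, 1, 3 and 5, and 0 were higher on each day, also at an unadjusted p under 0.05. Their median log2 fold change was -0.54, -0.43, -0.48 and -0.55. *sunz*, a comet gene, was lower on all 4 days, with log2 fold changes of -0.95, -0.93, -1.42 and -1.54. *s-cup* was likewise lower on all 4 days, with log2 fold changes of -0.92, -1.16, -1.79 and -0.99. The median of these genes was thus about as low at day 0 as at day 5.

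Sperm genes that are transcribed earlier, in spermatocytes, gave a close parallel. Of 20 such genes, which encode sperm tail and nuclear proteins among others, the number lower was 4, 5, 16 and 16 on days 0, 1, 3 and 5, and 0 were higher on each day, also at an unadjusted p under 0.05. Their median log2 fold change was -0.37, -0.32, -0.67 and -0.67, beside -0.38, -0.43, -0.62 and -0.67 for the cup and comet genes. Within this list, *fzo*, which encodes a mitofusin of spermatids, had log2 fold changes of -0.84, -1.01, -1.55 and -1.16 and was lower on all 4 days. Summed over the 20 genes, the derived mean normalized count was 373886, 506458, 513625 and 419143 in Ctrl KD testes. In *Set1* KD testes it was 287520.2, 405463, 327603 and 251223. The lower level of cup and comet transcripts thus came together with a lower level of sperm transcripts made before meiosis, and the part of a smaller share of late germ cells in it was not tested.

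**Figure D4:**
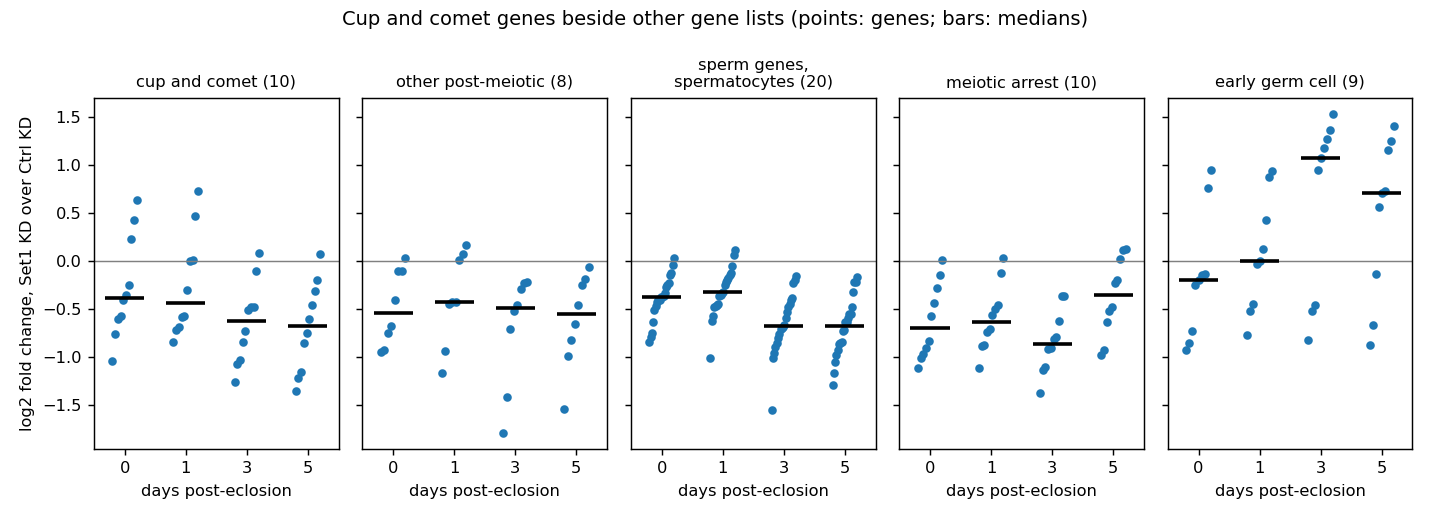
Log2 fold change between *Set1* KD and Ctrl KD testes (vertical axis, negative where *Set1* KD is lower) by days post-eclosion (horizontal axis) for the cup and comet genes and 4 other lists, with a point per gene, the median as a bar and the number of genes in parentheses. At day 5 the medians were -0.67 for the cup and comet genes, -0.67 for the sperm genes of spermatocytes and 0.71 for early germ cell genes.

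Genes that act with *soti* went in both directions, at shares near or below those of all genes. Of 13 individualization, Cullin-3 and caspase genes tested, the number lower was 2, 2, 2 and 2 on days 0, 1, 3 and 5. Of all genes, 15.7%, 17.6%, 28.0% and 25.6% were lower. The number higher among the 13 was 1, 1, 3 and 3, beside 14.7%, 15.2%, 28.9% and 24.4% of all genes. The counts therefore do not set these 13 genes apart. The median log2 fold change of the 13 genes was 0.055, 0.044, 0.12 and 0.043. *klhl10*, the substrate receptor of the same ligase, was lower on all 4 days, with log2 fold changes of -0.83, -0.77, -0.62 and -0.89. *Cul3*, the scaffold of the ligase, was lower on days 0 and 1, with log2 fold changes of -0.51, -0.43, -0.14 and -0.33. The effector caspase *Drice* went the other way and was higher on all 4 days, with log2 fold changes of 0.82, 0.69, 1.18 and 1.19. *Dcp-1*, a second effector caspase, was higher on days 3 and 5, with log2 fold changes of 0.36, 0.28, 1.31 and 1.33. Both caspases are used by cells in general and are not particular to spermatids.

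Earlier stages of the germline were compared in the same way. Of 10 meiotic arrest genes, which spermatocytes need to turn on sperm genes, the number lower was 5, 6, 8 and 3 on days 0, 1, 3 and 5, and 0 were higher on each day, also at an unadjusted p under 0.05. Their median log2 fold change was -0.70, -0.63, -0.86 and -0.36, nearer to 0 at day 5 than at day 3. *sa*, which encodes a testis TAF, had log2 fold changes of -1.12, -1.11, -1.37 and -0.63 and was lower on all 4 days. Of 5 meiotic cell cycle genes, the number lower was 1, 2, 4 and 4, and 1, *Rbp4*, was higher at day 5 (log2 fold change 0.72). Of 9 early germ cell genes, the number higher was 2, 2, 6 and 4, and the number lower was 2, 2, 3 and 2. Among them *piwi* was higher on all 4 days, with log2 fold changes of 0.96, 0.88, 1.54 and 1.41, and so was *nos*, with log2 fold changes of 0.76, 0.94, 1.37 and 1.25. *bgcn*, a partner of Bam in differentiation, went the other way and was lower on all 4 days, with log2 fold changes of -0.92, -0.77, -0.51 and -0.67. *stai* was lower on days 3 and 5, with log2 fold changes of -0.25, -0.44, -0.82 and -0.87. The median log2 fold change of the 9 genes was -0.20, -0.00082, 1.08 and 0.71. Their summed derived count was 8275, 11291, 12946 and 10541 in Ctrl KD and 6717, 8769.5, 10466 and 8325 in *Set1* KD testes. The sum was thus lower in *Set1* KD testes on each day. At day 3, *stai* alone held 7971 of the Ctrl KD sum and 4520.1 of the *Set1* KD sum. The sum therefore does not describe the 6 genes that were higher on that day. On days 3 and 5, when most cup and comet genes were lower, more of these early genes were higher than lower.

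Markers of the somatic cells of the testis were listed on all days, and none of their defining markers was at 0, except that *Pdh* was not listed at day 0. Of 6 cyst cell genes, the number higher was 1, 2, 2 and 2 on days 0, 1, 3 and 5, beside 14.7%, 15.2%, 28.9% and 24.4% of all genes. The number lower was 0, 0, 0 and 1, beside 15.7%, 17.6%, 28.0% and 25.6%. *tj* was higher on days 1, 3 and 5, with log2 fold changes of 0.86, 0.97, 1.60 and 1.57. The summed normalized counts of the 6 genes in Ctrl KD testes were 1936, 2700.4, 3118 and 2556. In *Set1* KD testes the sum was 2131, 2818, 3661 and 2875. Of 5 muscle sheath genes, the number lower was 1, 2, 1 and 1, and 1 was higher, at day 5. Their sum ranged over the days from 25204 to 67574 in Ctrl KD and from 27012 to 60266 in *Set1* KD testes. Hub genes summed to 1157 to 1827 in Ctrl KD and 723 to 1247 in *Set1* KD testes, with 1 of 4 higher on each day and 1 or 2 lower. The higher one was *Cad99C*, with log2 fold changes of 1.27, 1.55, 1.76 and 1.65. Of the pigment cell genes, 1 was higher on days 0 and 1 and 2 on days 3 and 5, with 1 lower on each day, and they summed to 3347 to 4963 in Ctrl KD and 1998 to 3183 in *Set1* KD testes. The gene lower on each day was *w*, which held 4909.6 of the 4963 in Ctrl KD testes at day 3. The sum thus mainly gives the level of *w* and does not describe the higher genes. *Sox100B* was higher on all 4 days, with log2 fold changes of 1.17, 1.02, 1.82 and 1.11. *Pdh* was higher on days 3 and 5, at 4.01 ± 1.31 and 3.05 ± 0.44, from a low derived Ctrl KD mean of 7.9 at day 3. The part of the somatic cells in the values of the cup and comet genes was not tested.

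Finally, the genes whose log2 fold changes over the 4 days lay nearest to the median of the 10 members were sought among 9692 other genes whose mean was 50 normalized counts or more on all days. By Euclidean distance over the 4 days these were *red*, *SCCRO4*, *CG33181*, *CG12620* and *CG13280*, at distances between 0.045 and 0.10 on the log2 scale. The nearest, *red*, had log2 fold changes of -0.38, -0.41, -0.65 and -0.65 on days 0, 1, 3 and 5, beside -0.38, -0.43, -0.62 and -0.67 for the median of the members. All 5 were lower at an adjusted p under 0.05 on days 3 and 5, beside 28.0% and 25.6% of all genes, and *CG13280* also at day 1. The 5 genes were chosen by these same values, so their calls are no separate result. Such a likeness over 4 values is a description of these tables.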

How the data were processed

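Reads of 24 polyadenylated RNA libraries were mapped by the authors with Bowtie2 2.5.1 to dm6 (BDGP Release 6), counted on genes with featureCounts and compared within each day with DESeq2. Bowtie2 does not align reads across introns, which can lower the counts of genes with several exons. The authors deposited 1 table per day with the mean normalized count (a signal over 6 libraries), the log2 fold change and its standard error, a Wald score, and p-values before and after adjustment. These columns are the authors' own comparison. They were used as the base here because the tables hold no values per library, so depth per library, the spread between single libraries and library outliers could not be examined, and the precision of a value is that of its SE.

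Wald p-values and Benjamini-Hochberg adjustment over all genes were computed again from the log2 fold change and SE (Python 3.11.15, scipy 1.17.1) and equal the deposited ones within rounding. The genotype means follow from the mean and the fold change with equal numbers of libraries. Counts were normalized separately for each day, so levels were not tested across days. Differences between days used the root of the summed squared SEs. A call by both criteria needs, as in the study, a size of 1.3 or more on the log2 scale besides an adjusted p under 0.05. Alternatives were stricter p-values, another cutoff, a test beyond the cutoff, a mean of at least 10, another adjustment, centring on all genes or on the sperm genes, and a weighted mean. Combined days were added after seeing the data. The statistics were tested on simulated data.

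The members and lists were chosen with earlier results of these data known. Named were all members, *Set1*, up to 4 genes of a list past both criteria on a day where a result turned on them (those largest in size at day 3 with a mean of at least 50), and the 5 genes nearest to the members' median. *klhl10*, *Cul3*, *Drice*, *bun*, *scpr-A* and *scpr-C* were named outside this rule after their values were seen, as were *vas*, *bgcn*, *stai*, *Rbp4* and *w*. Gene positions came from the BDGP6.54 annotation and RefSeq, which give the members the same coordinates. Symbols *Mst35Ba*, *Mst35Bb*, *dhod* and *Klhl10* were matched to listed names through RefSeq synonyms, and *o-cup*, *rye* and *Roc1b* were not listed.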

Additional observations from a re-analysis of the deposited data

Results flagged for a closer look

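The mean of days 3 and 5 was compared with that of days 0 and 1, a comparison chosen after the single days had been seen. It called 4 members lower on the later days and 0 higher, beside 9.46% of all genes lower and 9.27% higher. The difference in log2 fold change was -0.66 for *soti*, with an adjusted p of 0.0122 and of 0.0121 to 0.181 over its 4 alternatives. It was -0.74 for *c-cup* (0.0203, alternatives 0.0201 to 0.170). It was -0.61 for *p-cup* (0.0208, alternatives 0.0206 to 0.271). It was -0.60 for *r-cup* (0.0231, alternatives 0.0229 to 0.287). For each gene the alternatives that missed the threshold were day 5 against day 0 alone and centring on the sperm genes of spermatocytes. In each of the 6 planned pairs of single days, 0 of the 10 members passed.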

How the results depend on the processing

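No paired analysis was possible because the tables hold no values per library, and for the same reason leaving out each replicate was not run. With an adjusted p under 0.05 alone in place of both criteria, members lower numbered 2, 4, 7 and 6 on days 0, 1, 3 and 5, and members higher 1 and 1 on days 0 and 1. With an adjusted p under 0.01 alone, the counts were 1, 2, 6 and 5 lower, beside 10.5%, 12.2%, 22.6% and 19.3% of all genes, and 1 and 1 higher on days 0 and 1, beside 9.35% and 9.74%. With a cutoff of 1 on the log2 scale, they were 1, 0, 3 and 3 lower, beside 6.09%, 5.91%, 10.8% and 11.9%. The test beyond 1.3, and centring on the sperm genes, each took the count by both criteria at day 5 from 1 to 0 (for the test beyond 1.3, also 0 at an unadjusted p under 0.05).

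Of the counts at an adjusted p under 0.05, Benjamini-Yekutieli adjustment lowered those of days 0, 1, 3 and 5 to 1, 2, 5 and 5. Centring on the sperm genes, whose medians were -0.37, -0.32, -0.67 and -0.67 on days 0, 1, 3 and 5, gave 0, 1, 2 and 2 lower, beside 6.25%, 8.14%, 7.85% and 7.17% of all genes, and 2 higher on each day, *p-cup* and *r-cup*, beside 33.4%, 33.4%, 59.9% and 53.7%. The members' median became -0.0034 and -0.11 on days 0 and 1 and turned positive on days 3 and 5, at 0.054 and 0.0028. It also turned *schuy* to 0.20 at day 3 and 0.073 at day 5, and *c-cup* to 0.16 at day 3. The error of this centre is not in the test. The weighted mean in place of the median was -0.13, -0.25, -0.66 and -0.64 on days 0, 1, 3 and 5. The 4 late calls became 0 with day 5 against day 0 alone, and 0 lower with 1 higher after centring on the sperm genes. The causes of these changes were not tested. The counts for the 6 pairs of days stayed at 0 under the alternatives run for them, and over the 4 days the lower count rose from 7 to 8 with weighted days, which added *c-cup*. Benjamini-Yekutieli adjustment ended 6 single calls. Means per genotype, rather than per library, limit what can be said of spread.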
